A study of Homo sapiens with 6 samples.

Results

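Expression of 5 connexin genes, GJA1, GJB2, GJB5, GJB6 and GJC1, and of the pannexin gene PANX1 was compared between MCF10A cells and MCF10A-SNAI1 cells. These 6 genes, of 18417 measured, were chosen by name, and each was read from the probe set that carries its symbol alone. MCF10A cells are human mammary epithelial cells that are immortal but form no tumors, and the control arrays hold them untransfected. MCF10A-SNAI1 cells carry a SNAI1-Flag plasmid, driven by a CMV enhancer and a chicken beta-actin promoter, and were selected with puromycin in another laboratory. Both lines were grown in the same mammary epithelial medium with cholera toxin. No array of a line with an empty plasmid was used here, and the sources do not say whether the SNAI1 line is a clone or a pool. RNA of each line was hybridized to 3 Affymetrix HuGene arrays, and values are on the log2 scale of the deposited table.

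Connexins are membrane proteins that form hexameric hemichannels, and hemichannels of adjacent cells dock into gap junction channels that pass ions and small metabolites. Pannexins share the membrane topology of connexins but are not thought to form such docked channels in most cells, and PANX1 is known as a channel that releases ATP. In mammary tissue connexin 43, encoded by GJA1, is known from myoepithelial cells, and connexin 26 and connexin 30, encoded by GJB2 and GJB6, from luminal cells. GJB5 encodes connexin 31.1, a connexin of stratified epithelia, and GJC1 encodes connexin 45. So the label of an epithelial gap junction group covers genes of unlike distribution, and PANX1 is not a connexin.

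Of the 6 genes, GJB5 was lower by more than 2-fold in MCF10A-SNAI1 cells, GJB2 was lower by less than 2-fold, and PANX1 was lower by a small margin that missed the p threshold. GJC1, GJB6 and GJA1 overlapped between the lines. A gene was called when limma gave it an adjusted p below 0.01, with Benjamini-Hochberg adjustment across every probe set, and its change exceeded 2-fold. By this rule 1 of the 6 genes was called lower, against 2.54% of all genes. None was called higher, against 3.10% of all genes, and by the methods' t-test the counts were also 1 lower and 0 higher. At an unadjusted p below 0.05 from limma, 3 of the 6 genes were lower and 0 higher, where 21.0% of all genes were higher and 21.3% lower. The median log2 fold change of the 6 genes was -0.13 and that of all genes was -0.013. A count of this size describes GJB5 and is not a statement on the group.

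The promoters of GJB2 and GJB6, which lie side by side on chromosome 13, and of GJA1 are shown because GJB2 but not GJB6 or GJA1 passed the p threshold and because SNAI1 is known to bind the E-box CAGGTG. The sequences are from RefSeq on GRCh38.p14, 5′ to 3′ on the strand of the gene, and end at the base before the start of transcription, or for GJB2 at the first transcribed base. Capitals mark the E-box CAGGTG, the GC box GGGCGG and the AP-1 motif TGANTCA, each searched on both strands.
GJB2 (chr13:20192938-20193188, minus strand): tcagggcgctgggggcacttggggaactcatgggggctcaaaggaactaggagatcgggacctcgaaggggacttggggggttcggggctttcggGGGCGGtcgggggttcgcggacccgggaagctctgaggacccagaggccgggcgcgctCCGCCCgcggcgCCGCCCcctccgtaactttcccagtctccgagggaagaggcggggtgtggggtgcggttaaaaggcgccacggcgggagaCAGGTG
GJB6 (chr13:20230979-20231228, minus strand): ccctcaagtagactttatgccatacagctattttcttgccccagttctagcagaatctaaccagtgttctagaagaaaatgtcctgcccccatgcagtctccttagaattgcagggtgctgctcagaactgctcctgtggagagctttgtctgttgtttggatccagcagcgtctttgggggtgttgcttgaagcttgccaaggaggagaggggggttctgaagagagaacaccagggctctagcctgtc
GJA1 (chr6:121435396-121435645, plus strand): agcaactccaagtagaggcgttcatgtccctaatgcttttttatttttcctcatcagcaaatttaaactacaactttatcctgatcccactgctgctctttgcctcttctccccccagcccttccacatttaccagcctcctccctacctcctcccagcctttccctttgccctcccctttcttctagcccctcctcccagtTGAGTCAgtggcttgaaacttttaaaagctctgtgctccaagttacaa
RefSeq promoters were found for 4 of the 6 genes, and GJB5 and GJC1 had none in the table used here. None of the 4 held CAGGTG in the 250 bases before the start, against 17.5% of 35116 promoters. In GJB2 the E-box ran over the start, from position -5 to the first transcribed base, and with 50 transcribed bases included 1 of the 4 promoters held it, against 20.6% of all. GJB2 also held 3 GC boxes, which 42.6% of all promoters hold at least once, and PANX1 held 1, from position -43 to -38. GJA1 held TGANTCA from position -48 to -42, a motif in 6.6% of all promoters. TATAAA, on either strand, was in none of the 4 and in 10.7% of all. The 250 bases of GJB2 were 70.0% G and C with 25 CpG dinucleotides, and those of GJB6 were 50.8% with 1. PANX1 was at 62.0% with 19 and GJA1 at 48.0% with 1, beside medians of 58.0% and 11 over all promoters. A match is a description of letters and not of binding.

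GJB5 was at 8.52, 8.61 and 8.63 on the MCF10A arrays and at 5.34, 5.11 and 4.88 on the MCF10A-SNAI1 arrays. Every array of the SNAI1 line lay more than 3 log2 units under every control array. The means were 8.59 ± 0.056 (SD, n = 3 arrays) and 5.11 ± 0.23 (SD, n = 3 arrays), an 11.2-fold fall (log2 fold change -3.48 with a standard error, SE, of 0.12, limma's adjusted p = 2.60e-06). GJB5 ranked 63rd of 18417 genes by the size of its change. All 14 alternative settings called it, and several of them could change its p but not its fold change. The level of GJB5 stood at the 81.1st percentile of all probe sets in MCF10A and at the 36.5th in MCF10A-SNAI1 cells. The table holds no detection calls, and whether the lower level was background was not tested. In bulk RNA, fewer cells with the transcript and less transcript per cell cannot be told apart.

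GJB2, the connexin 26 gene, was at 7.47, 7.33 and 7.52 in MCF10A and at 6.69, 6.51 and 6.54 in MCF10A-SNAI1 cells. The arrays of the lines did not overlap, as was the case for 48.3% of all genes. GJB2 passed the p threshold but not the fold threshold, at a 1.81-fold lower level (log2 fold change -0.86 with an SE of 0.081, 95% confidence interval -1.05 to -0.67, limma's adjusted p = 3.07e-04). At an adjusted p below 0.01 without a fold threshold 11.2% of all genes were lower. The change of GJB2 was smaller in size than that of GJB5 by 2.62 log2 units (standard error 0.12), with p = 0.1 by an exact two-sided permutation test, the smallest that 3 arrays against 3 allow.

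**Figure D1:**
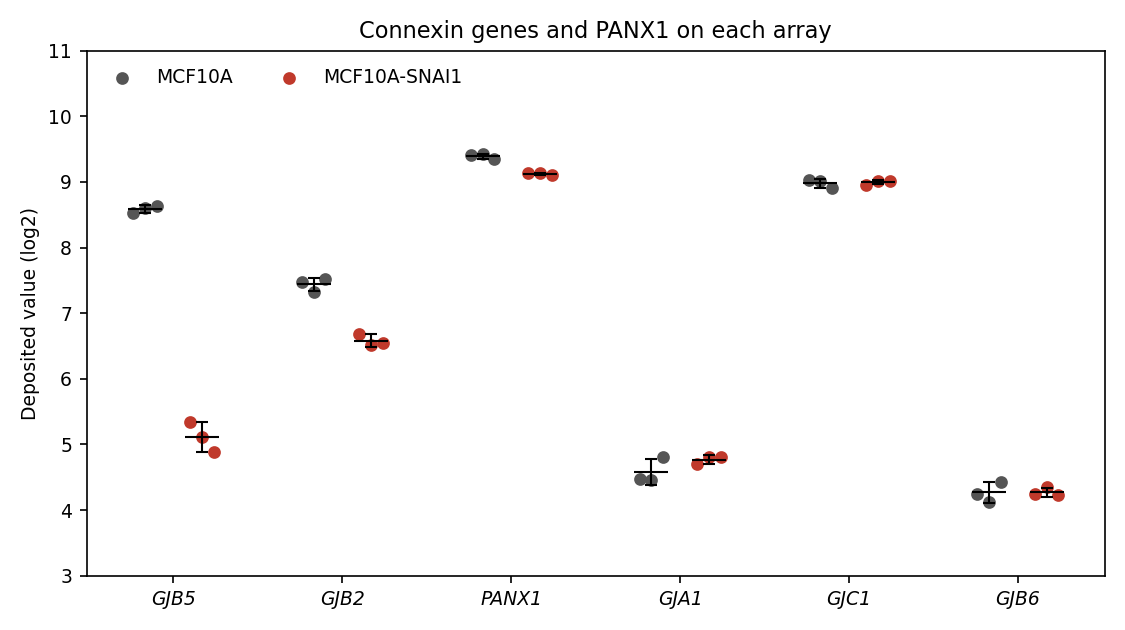
Deposited log2 values of the 6 genes on each of 3 MCF10A arrays (grey) and 3 MCF10A-SNAI1 arrays (red), with the mean and SD in black. GJB5 goes from 8.59 to 5.11 and GJB2 from 7.44 to 6.58, while the arrays of GJA1, GJC1 and GJB6 overlap between the lines, and heights of different genes are not comparable because each probe set has its own brightness.

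GJB6, which encodes connexin 30 and lies next to GJB2, was at 4.25, 4.12 and 4.43 in MCF10A and at 4.24, 4.35 and 4.23 in MCF10A-SNAI1 cells. The arrays overlapped throughout, and the log2 fold change was 0.0038 (95% confidence interval -0.21 to 0.22, adjusted p = 0.986 from limma). GJB6 stood at the 24.7th and 25.0th percentile of all probe sets. The change of GJB2 was lower than that of GJB6 by 0.86 log2 units (standard error 0.092, exact permutation p = 0.1). Across the 15 pairs of the 6 genes, 13 differences in change had this smallest p, and it was 0.115 after Benjamini-Hochberg adjustment over the pairs.

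GJA1, the connexin 43 gene, was at 4.47, 4.46 and 4.81 in MCF10A and at 4.70, 4.81 and 4.80 in MCF10A-SNAI1 cells. MCF10A replicate 3 lay apart from the other control arrays and level with the SNAI1 line, so the groups overlapped. The log2 fold change was 0.19 (standard error 0.10, 95% confidence interval -0.058 to 0.44, adjusted p = 0.278 from limma), and without MCF10A replicate 3 it was 0.30 (adjusted p = 0.0377). These values stood at the 29.2nd and 31.7th percentile of all probe sets. A pseudogene, GJA1P1, is annotated on another chromosome, and how far it shares probes with GJA1 was not tested.

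GJC1, the connexin 45 gene, was at 9.03, 9.01 and 8.90 in MCF10A and at 8.96, 9.02 and 9.01 in MCF10A-SNAI1 cells. The lines overlapped and the log2 fold change was 0.015 (95% confidence interval -0.13 to 0.16, adjusted p = 0.915 from limma). Its level stood at the 84.9th and 85.3rd percentile of all probe sets, so GJC1 was a bright probe set with an interval far inside 2-fold. PANX1 was at 9.40, 9.42 and 9.35 in MCF10A and at 9.13, 9.14 and 9.11 in MCF10A-SNAI1 cells. Its groups did not overlap, as was the case for 48.3% of all genes. The log2 fold change of PANX1 was -0.26 (standard error 0.056, 95% confidence interval -0.40 to -0.13). The adjusted p of PANX1 was 0.0133 from limma and 0.0052 by the methods' t-test, and over all alternatives it ran from 0.0027 to 0.0542. A difference of 1.20-fold was under the fold threshold in each of these settings.

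The rest of the connexin and pannexin family was measured beside these genes. A further 12 genes of the family had a probe set with that symbol alone and were analysed here. None of the 12 was called in either direction by limma or by the methods' t-test, against 5.64% of all genes by limma. At an unadjusted p below 0.05 from limma, 1 was higher and 1 lower, under the 21.0% and 21.3% of all genes. Their median log2 fold change was -0.052, within a range of -0.37 to 0.17. GJA3, the connexin 46 gene best known from the lens, was at 7.44, 7.57 and 7.55 in MCF10A and at 7.13, 7.17 and 7.16 in MCF10A-SNAI1 cells. GJA3 was thus lower on every array of the SNAI1 line, where 48.3% of all genes did not overlap between the lines. Its change was under 2-fold (log2 fold change -0.37 with an SE of 0.062, limma's adjusted p = 0.0049).

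**Figure D2:**
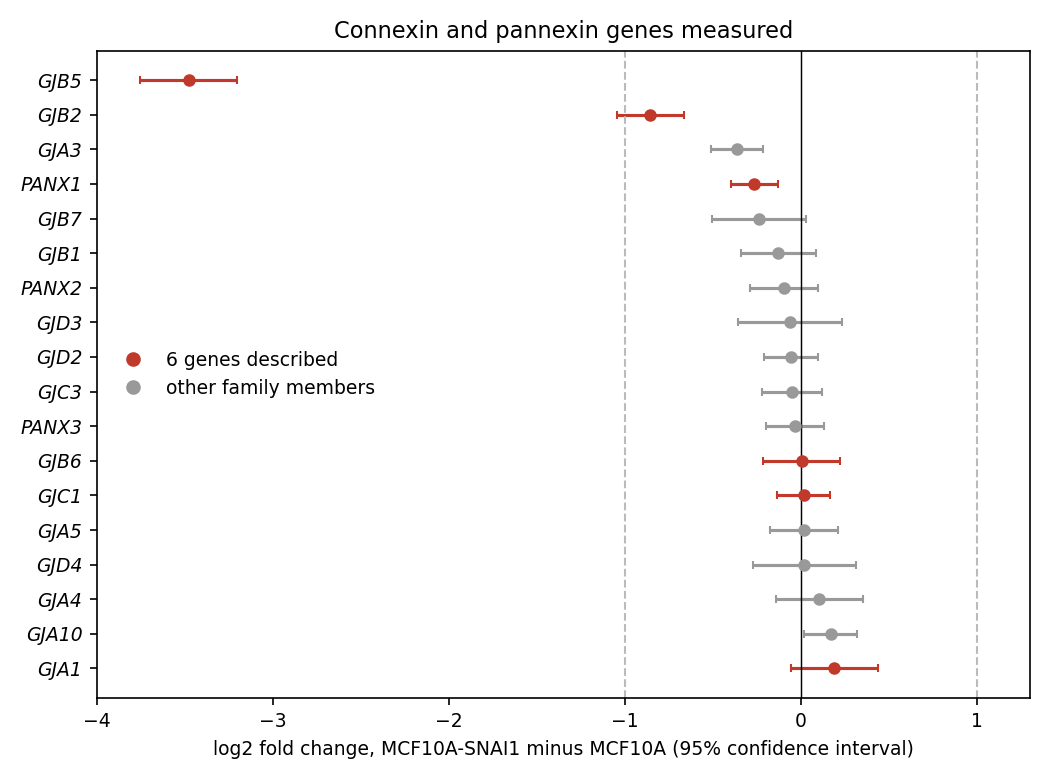
Log2 fold change, MCF10A-SNAI1 minus MCF10A, of the 18 connexin and pannexin genes measured, with 95% confidence intervals from limma and dashed lines at 2-fold. GJB5 at -3.48 lies apart, GJB2 at -0.86 and GJA3 at -0.37 follow, and the other intervals lie inside 2-fold.

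Gene order was used to see whether the lower genes stood in lowered stretches of chromosome. By RefSeq order on GRCh38.p14, GJB5 on chromosome 1 was flanked among measured genes by CSMD2, HMGB4 and C1orf94 on one side and by GJA4, DLGAP3 and ZMYM6 on the other. Their log2 fold changes ran from -0.0015 for HMGB4 to 0.24 for ZMYM6. GJA4, the connexin 37 gene of the same cluster, was at 0.10 (adjusted p = 0.587 from limma). On chromosome 13 GJB2 lay between GJA3, at -0.37, and GJB6, at 0.0038, with the zinc finger genes ZMYM5 and ZMYM2 beyond GJA3 at 0.59 and 0.67, and CRYL1 and IFT88 beyond GJB6 at 0.25 and 0.36. The nearest measured genes outside this trio thus had positive log2 fold changes, and of these 4 ZMYM2 passed the p threshold (adjusted p = 4.81e-04 from limma). Taking the 3 nearest measured genes on each side of each of the 6 genes gave 28 neighbours that are not connexins. None was called by limma or by the methods' t-test, where limma called 5.64% of all genes. Of the 28, 8 had an adjusted p below 0.01 from limma, against 23.2% of all genes. At an unadjusted p below 0.05 from limma, 8 were higher and 6 lower, where 21.0% and 21.3% of all genes were.

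**Figure D3:**
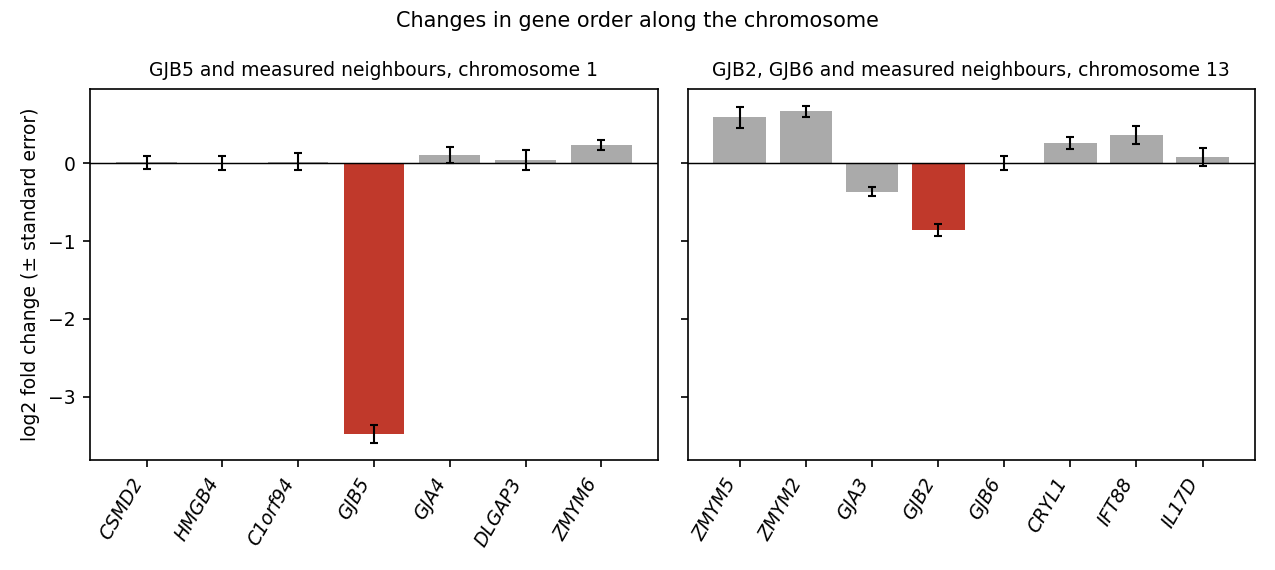
Log2 fold change with its standard error of GJB5 (left) and of GJB2 and GJB6 (right) and their measured neighbours, in gene order along chromosomes 1 and 13, with the genes described in red and neighbours in grey. GJB5, at -3.48, stands between neighbours near 0, and GJB2, at -0.86, lies between GJA3 at -0.37 and GJB6 near 0.

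For each gene the 3 genes with the most similar profile were found by the root mean square distance over the 6 arrays, each profile centred on its own mean. GJB5 was closest to XDH, xanthine dehydrogenase, at a distance of 0.11, to the epithelial adhesion gene EPCAM at 0.13 and to the collagen receptor chain ITGA2 at 0.14. Their log2 fold changes were -3.43, -3.70 and -3.68. GJB2 was closest to the protocadherin PCDHB2 at 0.039, to CCDC88C at 0.046 and to the Wnt receptor FZD5 at 0.055, with log2 fold changes of -0.91, -0.77 and -0.87. PANX1 was closest to HLA-L, the lysyl-tRNA synthetase gene KARS1 and NAB1, at changes of -0.27, -0.28 and -0.29. The nearest genes of GJC1 were FAM111A, CAND1 and SIAH2, those of GJA1 were C1GALT1C1, PLEKHA3 and SFT2D3, and those of GJB6 were OR10A5, TRIM10 and NOL4L-DT. For these flat genes the distance mostly follows the spread between arrays. For GJB5, GJB2 and PANX1 it mostly follows the change between the lines. The like fold changes of their nearest genes thus come from the way these were picked and are not a separate result.

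Genes of proteins that bind connexins, carry them to the membrane or remove them were mostly not called. Of 21 such genes 18 were measured, 2 were called lower, against 2.54% of all genes, and none higher, by limma and by the methods' t-test alike. At an unadjusted p below 0.05 from limma, 5 were higher and 5 lower, against 21.0% and 21.3% of all genes. The adherens junction gene CDH1, whose E-cadherin contacts are known to precede gap junction assembly, fell by 3.97 on the log2 scale (adjusted p = 4.47e-07 from limma). SMURF2, a ubiquitin ligase known to act on connexin 43, went from 10.50, 10.60 and 10.51 to 9.07, 9.02 and 9.14 (log2 fold change -1.46 with an SE of 0.065, limma's adjusted p = 9.55e-06). The scaffold gene TJP1, which encodes the connexin partner ZO-1, was at 0.34 (adjusted p = 0.0161) and the drebrin gene DBN1 at 0.29 (adjusted p = 0.0114), neither of them called. CAV1 and CTNNB1 were at 0.031 and -0.089. The median over the list was -0.010. The direction of both called genes was known beforehand, as the study reported loss of E-cadherin protein and lower SMURF2 by qRT-PCR. CDH1 is counted again among the epithelial markers below.

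Of 17 kinases and phosphatases that act on connexin 43, 16 were measured and 1 was called, against 5.64% of all genes. It was PRKCA, which encodes protein kinase C alpha and which the study had already reported as up-regulated by qRT-PCR. PRKCA went from 6.76, 6.84 and 6.79 to 8.45, 8.46 and 8.48 (log2 fold change 1.67 with an SE of 0.057, limma's adjusted p = 2.82e-06). Another 3 passed the p threshold upward without reaching 2-fold, where 12.1% of all genes were higher at that p. These were CAMK2D at 0.96, the protein kinase A catalytic subunit PRKACB at 0.69 and the ERK1 gene MAPK3 at 0.58. None was called lower by limma or by the methods' t-test, and at an unadjusted p below 0.05 from limma 8 were higher and 2 lower, against 21.0% and 21.3% of all genes. SRC, whose kinase closes connexin 43 channels, was at -0.16 (adjusted p = 0.234). The median of the list was 0.16.

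Genes of ATP release and purine signalling held members that were lower and members that were higher. Of 30 such genes 25 were measured, 3 were called lower, against 2.54% of all genes, and none higher, by limma and by the methods' t-test. At an unadjusted p below 0.05 from limma, 3 were higher and 9 lower, against 21.0% and 21.3% of all genes. SLC29A1, the equilibrative nucleoside transporter ENT1, went from 9.32, 9.21 and 9.17 to 7.74, 7.87 and 7.84 (log2 fold change -1.41 with an SE of 0.070, limma's adjusted p = 1.61e-05). The adenosine receptor ADORA2B was at 9.02, 8.99 and 9.06 in MCF10A and at 7.92, 7.56 and 7.78 in MCF10A-SNAI1 cells (log2 fold change -1.26 with an SE of 0.097, limma's adjusted p = 1.22e-04). The ATP and UTP receptor P2RY2 went from 7.15, 6.95 and 7.03 to 6.06, 5.95 and 5.82 (log2 fold change -1.10 with an SE of 0.087, limma's adjusted p = 1.39e-04). In each of these genes all control arrays lay above all arrays of the SNAI1 line. The lines did not overlap for 12 of the 25 genes of the list and for 48.3% of all genes. Under 2-fold, 4 more were lower and 2 higher at an adjusted p below 0.01 from limma. The lower ones were the adenosine kinase ADK at -0.78, the volume-regulated channel subunit LRRC8A at -0.55, the ectonucleotidase NT5E at -0.51 and ENTPD2 at -0.35, and the higher ones were the ATP-gated channels P2RX4 at 0.62 and P2RX6 at 0.46. The median of the list was -0.027.

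**Figure D4:**
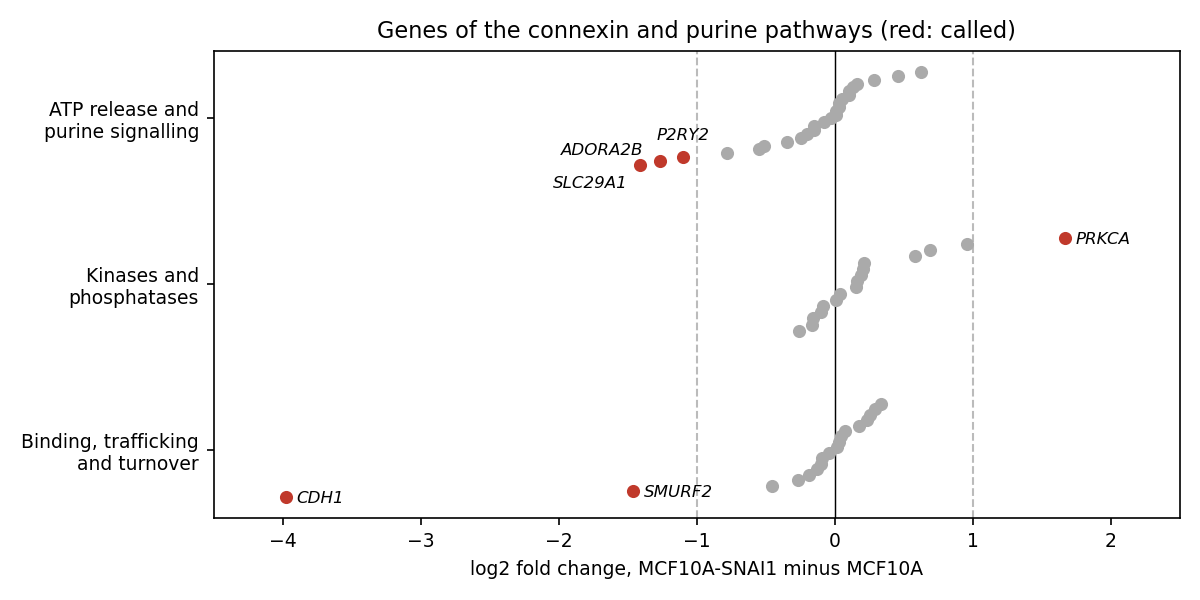
Log2 fold change, MCF10A-SNAI1 minus MCF10A, of the measured genes of each of 3 lists, with a point per gene, called genes in red and dashed lines at 2-fold. The called genes are CDH1 at -3.97 and SMURF2 at -1.46, PRKCA at 1.67, and SLC29A1, ADORA2B and P2RY2 from -1.41 to -1.10.

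Array and cell checks were as follows. The transgene's own gene SNAI1 was at 5.76 ± 0.037 and 10.51 ± 0.015 (SD, n = 3 arrays each). The array medians lay between 6.04 and 6.09. Over all genes limma called 2.54% lower and 3.10% higher, and the marker counts here stand beside these shares. Basal mammary markers were lower, as GJB5 was. Of 6 listed, KRT17 and TP63 were not measured. The 4 measured, KRT5, KRT14, ITGA6 and CDH3, were called lower, and their mean log2 level went from a range of 12.25 to 12.31 to one of 7.90 to 8.0. Of 7 luminal and general epithelial markers CDH1 and EPCAM were called lower and GATA3 higher, with list means of 8.46 to 8.48 and 7.59 to 7.72. The luminal keratins did not move together, with KRT8 at 0.95 (adjusted p = 6.22e-05 from limma), KRT18 at -0.65 (adjusted p = 0.0011) and KRT19 at -0.19 (adjusted p = 0.420). Of 8 fibroblast and mesenchymal markers FN1, COL1A1, COL3A1 and DCN were called higher, with list means of 7.28 to 7.34 and 9.57 to 9.60. The others were not called, with VIM at 0.058 (adjusted p = 0.601 from limma), THY1 at 0.076, COL1A2 at 0.25 and PDGFRB at 0.40. The part of these epithelial and mesenchymal markers in the GJB5 result was not tested. Of 4 endothelial and 3 adipocyte markers none was called by limma or by the methods' t-test, and none had an unadjusted p below 0.05 from limma, with list means of 4.95 to 5.04 and 5.02 to 5.11 for endothelial and of 4.89 to 4.96 and 4.74 to 4.95 for adipocyte markers in MCF10A and MCF10A-SNAI1 cells. Of 5 leukocyte markers CD14 was called higher by limma, at 1.03. The methods' t-test did not call it, and the count was also 0 when replicate 2 or 3 of either line was left out. The list means of leukocyte markers were 4.44 to 4.54 and 4.58 to 4.69, and the defining marker PTPRC was at 3.23 and 3.22.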

How the data were processed

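Total RNA of MCF10A and MCF10A-SNAI1 cells was hybridized to Affymetrix HuGene arrays, 3 per line, described in the study as independent repeats. The deposited table holds log2 values of 33297 probe sets. According to the methods the authors normalized by GC RMA in GeneSpring GX, whereas GCOS, Affymetrix Expression Console 1.1 and MAS5 stand in the submitters' processing notes. The origin of the table among these programs, and the genome build of the array, stay unstated. The values were used as deposited, with no filter and no detection calls. The platform annotation gave exactly 1 symbol to 19460 probe sets, several to 1754 and none to 12083. The brightest probe set with 1 symbol was taken per gene, which gave 18417 genes, and each of the 6 genes described had 1 such probe set.

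Lines were compared in R 4.3.3 with limma 3.58.1, with p-values adjusted by Benjamini-Hochberg across every probe set, and the call required more than 2-fold at an adjusted p under 0.01. The scripts were tested on simulated data. The number of arrays limits the precision, and p-values rest on the spread among them. The members and gene lists were chosen with earlier results of these data known. By rule the text names the 6 genes, SNAI1 and CDH1, family members past the p threshold, up to 4 called genes per direction of each list, and the 3 most similar profiles. Other genes named, including chromosomal neighbours, and the motifs besides CAGGTG were chosen after values were seen. Promoters were read from RefSeq, GRCh38.p14. A planned comparison of proteins was not made, as no protein sequences were used here.

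Alternatives were quantile normalization, median centring, the exclusion of single arrays, a block on the replicate number, trended and robust moderation, a filter on dim probe sets, the methods' t-test, the mean of a gene's probe sets, and looser thresholds. A linear scale was not tried, because the values are log2.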

Additional observations from a re-analysis of the deposited data

How the results depend on the processing

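The call of GJB5 held under all 14 alternatives, at log2 fold changes of -3.59 to -3.37, and none of these called another of the 6 genes while the fold threshold was kept. GJB2 ran from -0.91 to -0.82, PANX1 from -0.29 to -0.25, GJC1 from -0.024 to 0.039, GJA1 from 0.13 to 0.30 and GJB6 from -0.070 to 0.087, with the extremes reached when an array was left out. GJA1 and GJB6 lay under the filter on dim probe sets and had no value there. The mean of a gene's probe sets could not change these values, because each of the 6 genes had 1 probe set. Trended and robust moderation, the replicate block, the filter and the methods' t-test also left the log2 fold changes as they were and bore only on p. An adjusted p below 0.01 with no fold threshold gave 2 of the 6 genes lower, 1 of the other family members lower, 4 kinases and phosphatases higher, 2 purine genes higher and 7 lower, 2 luminal and general epithelial markers higher, and 2220 genes higher and 2059 lower in all, because fewer criteria apply. The leukocyte marker count, 1 in the reported fit, was 0 with the replicate block and by the methods' t-test, and 0 to 1 when each array was left out. The cause was not tested. The count of promoters with CAGGTG went from 0 to 1 with 50 transcribed bases added.

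The replicate numbers paired the arrays in part at most. The deviations of same-numbered arrays correlated at 0.12, 0.12 and -0.0062, and those of unlike numbers at -0.13 to 0.034. Replicates 1 and 2 of each line correlated best with their own number, and replicate 3 of each line did not. With the replicate block, 564 genes were called higher and 464 lower, against 571 and 467, and the adjusted p was 2.54e-04 for GJB5, 0.0021 for GJB2 and 0.0369 for PANX1. Apart from the leukocyte count it changed no count by over 1.5 times. The table holds no detection calls, and whether the dim probe sets of GJA1 and GJB6 were above background was not tested.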
